A study of Mus musculus with 6 samples.

Results

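Matrix metalloproteinases and their tissue inhibitors were examined in bone marrow-derived macrophages of C57BL/6J mice of control genotype and of a Dhps knockout genotype. The set holds 8 of the 10551 genes in the count table: the inhibitors Timp1, Timp2 and Timp3 and the proteases Mmp9, Mmp12, Mmp13, Mmp14 and Mmp19. They were taken by symbol, and all 8 were measured. The genes were selected on their function and with their knockout against control counts in these libraries already known, so its fold changes and adjusted p-values are given here as a description and not as an independent test. Of the 6 libraries of total RNA, 3 came from cells of control genotype and 3 from cells with a macrophage-specific knockout (Dhps_delta_Myel), both of strain C57BL/6J. Dhps encodes deoxyhypusine synthase, the first of the enzymes that turn a lysine of the translation factor eIF5A into hypusine, and the title of the series ties the enzyme to the pro-inflammatory state of macrophages. The labels name no Cre driver, control allele, stimulus, culture time, age or sex. Whether replicate libraries stem from different mice or cultures is also not stated, so p-values measure the spread between these libraries, which may be technical.

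Matrix metalloproteinases are zinc enzymes that cut collagens, elastin and other proteins outside the cell. Most are secreted as inactive proenzymes and become active when a propeptide is removed. TIMPs bind the active site of the mature enzymes and block it, and macrophages make both proteases and inhibitors when they migrate and remodel tissue.

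In mm10 coordinates of the deposited table, Mmp13 (chromosome 9, 7272514 to 7283333, 10 exons) and Mmp12 (chromosome 9, 7347374 to 7360461, 10 exons) lie 64 kb apart on the plus strand. They belong to a cluster of 9 Mmp genes annotated there, of which Mmp8 and Mmp27 were also measured. Timp1 (chromosome X, 20870166 to 20874737, plus strand) lies within Syn1, and Timp3 (chromosome 10, 86300412 to 86349505, plus strand) within Syn3. Both host genes are on the opposite strand. Of the exonic bases of Timp3, 1732 (37%) are also exonic in Syn3, and of those of Mmp19 (chromosome 10, 128790910 to 128800824, plus strand) 1001 (29%) are shared with the opposite-strand genes Tmem198b and Gm47093. Strand use in counting is not given in the sources used here, so reads from these stretches could belong to either gene. Timp2 (chromosome 11, 118301061 to 118355411, minus strand), Mmp9 (chromosome 2, 164948219 to 164955849, plus strand) and Mmp14 (chromosome 14, 54431604 to 54441258, plus strand) share no exonic base with another annotated gene, nor do Timp1, Mmp12 and Mmp13.

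RefSeq promoter windows (GRCm38.p6) were matched for 6 of the 8 genes, all except Mmp9 and Mmp19. The 250 bases before the start site were searched on both strands for the AP-1 element TGANTCA, which reads the same on both strands, and for the TATA box TATAAA. Mmp12 has a pair of windows, and the one at the gene start of the deposited table is used. That window and the one of Mmp13 hold an AP-1 match, at 44 and 35 bases before the start, and that of Mmp13 also a TATA match 16 bases before it, all shown in capitals. The other Mmp12 window, with a start site at 7344397, holds no match to either motif. Among 32841 windows of this length, 6.75% hold the AP-1 letters and 12.4% the TATA letters, and no position overlaps between the motifs in these genes. The windows of Mmp12 and Mmp13 are shown because these genes had the highest transcript levels of the set, and that of Timp3 because it had the largest fold change. The Mmp12 and Mmp13 windows hold 2 and 1 CG dinucleotides, and the Timp3 window holds 18 and no match to either motif. The median over all windows was 6. A match is a description of the letters and not evidence of binding.
Mmp12, chr9:7347124-7347373, plus strand: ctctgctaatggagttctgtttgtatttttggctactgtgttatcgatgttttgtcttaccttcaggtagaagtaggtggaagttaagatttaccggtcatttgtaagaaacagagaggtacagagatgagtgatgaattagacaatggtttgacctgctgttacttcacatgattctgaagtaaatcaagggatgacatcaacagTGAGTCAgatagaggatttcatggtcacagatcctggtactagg
Mmp13, chr9:7272264-7272513, plus strand: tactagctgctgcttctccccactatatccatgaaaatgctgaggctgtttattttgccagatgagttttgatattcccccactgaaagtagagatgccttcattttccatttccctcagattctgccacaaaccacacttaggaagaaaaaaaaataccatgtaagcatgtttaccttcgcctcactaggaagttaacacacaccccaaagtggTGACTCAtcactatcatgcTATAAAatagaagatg
Timp3, chr10:86300162-86300411, plus strand: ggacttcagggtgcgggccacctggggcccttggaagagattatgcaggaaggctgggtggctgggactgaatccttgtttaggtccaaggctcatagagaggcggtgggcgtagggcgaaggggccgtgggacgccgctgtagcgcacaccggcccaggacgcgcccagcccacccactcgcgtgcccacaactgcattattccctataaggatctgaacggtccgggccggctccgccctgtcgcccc

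The libraries held between 11648710 and 16224818 counts. The 8 genes together took between 0.745% and 0.879% of them. Values are given as counts per 1000000 counts after scaling by the trimmed mean of M values (normalized CPM). Dhps lay at 24.1, 20.9 and 23.4 CPM in control libraries 1 to 3 and at 13.2, 13.6 and 18.3 CPM in the knockout libraries 1 to 3, with no overlap (log2 fold change -0.59, SE 0.14, edgeR adjusted p = 0.214). The macrophage markers Adgre1 (1512 and 1338 CPM in the controls and knockout libraries), Csf1r (1093 and 1003 CPM) and Cd68 (476 and 473 CPM) were expressed in both groups. Of 12 macrophage markers 1 fell, the lysozyme gene Lyz2, from 18039 to 8765 CPM (log2 fold change -1.04, edgeR adjusted p = 7.2e-05), and 9 had a log2 fold change below 0. In the same test 0.104% of all genes passed in either direction. The knockout libraries lay below the controls without overlap for 6 of the 12, where 5.45% of all genes did. Among the 6 were Adgre1 (log2 fold change -0.18), C1qc (-0.33), C1qa (-0.28) and Fcgr1 (-0.33). The summed level of the list was 24510 to 27264 CPM in the controls and 14909 to 17454 CPM in the knockout libraries, and without Lyz2 7850 to 8494 and 6849 to 7992 CPM. The part of these markers in the results was not tested.

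Of the 8 genes, none passed an adjusted p under 0.05 in edgeR's quasi-likelihood test or in limma-voom, and 1, Timp3, passed in DESeq2. In the edgeR test, 0.104% of all genes passed (11 of 10551, of which 10 were higher and 1 lower). At an unadjusted p under 0.05 there were 2 of the 8, Timp3 and Mmp9, against 6.48% of all genes. Log2 fold changes of knockout over control were above 0 for 7 genes and below 0 for Mmp13. Their median was 0.16, against -0.0044 over all genes. The 3 knockout libraries lay above the 3 control libraries for 1 gene, Timp3, a pattern that 5.73% of all genes showed in that direction.

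**Figure D1:**
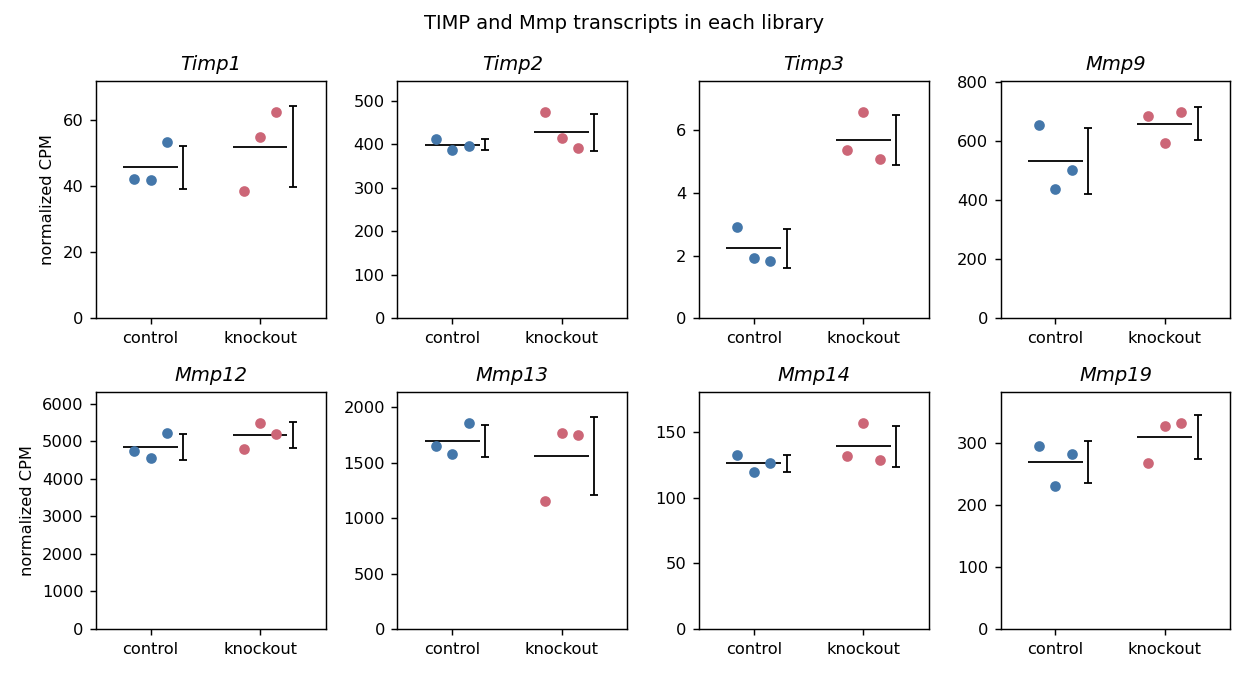
Normalized CPM (vertical axes, from 0) of the 8 genes in the controls and Dhps knockout libraries. Points are libraries 1 to 3 from left to right, horizontal lines are group means and bars are 1 SD (n = 3 each). The groups are separate for Timp3 and overlap for the other 7 genes.

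Among the inhibitors, Timp3 had the lowest transcript level and the largest difference. Timp3 encodes an inhibitor that binds to the extracellular matrix and also acts on ADAM17, the protease that releases TNF from the cell surface. It lay at 2.93, 1.93 and 1.83 CPM in control libraries 1 to 3 and at 5.36, 6.59 and 5.09 CPM in the knockout libraries 1 to 3. The lowest knockout library was above the highest control library, and all 6 libraries exceeded the floor of 1 CPM that the table shows. The level was 2.53-fold higher, which is 1.34 on the log2 scale (SE 0.25, 95% interval 0.81 to 1.87, unadjusted p = 5.9e-05), the 12th smallest p of all genes. It missed the threshold over all genes with an edgeR adjusted p = 0.052.

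These Timp3 values rest on 41, 30 and 21 counts in the controls and 78, 85 and 83 in knockout libraries. Exact Poisson 95% intervals, which cover counting error alone, reached up to 3.97 CPM in control library 1 and down to 4.05 CPM in knockout library 3, so they did not overlap between the groups. The spread between libraries was 27.3% of the mean in the controls and 14.0% in the knockout libraries, where counting alone would give 18.1% and 11.0%.

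Whether Timp3 passed depended on the setting, while its log2 fold change stayed between 1.22 and 1.58. It passed with the size factors of DESeq2 in edgeR (adjusted p = 0.0499), without scaling beyond library totals (0.035), with a stricter filter on low counts (0.048), in DESeq2 (0.0059, where 0.209% of all genes passed) and without control library 1 (0.021). It did not pass in limma-voom (adjusted p = 0.086) or with any of the other 5 libraries left out, with adjusted p from 0.075 without knockout library 1 to 0.405 without control library 2.

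**Figure D2:**
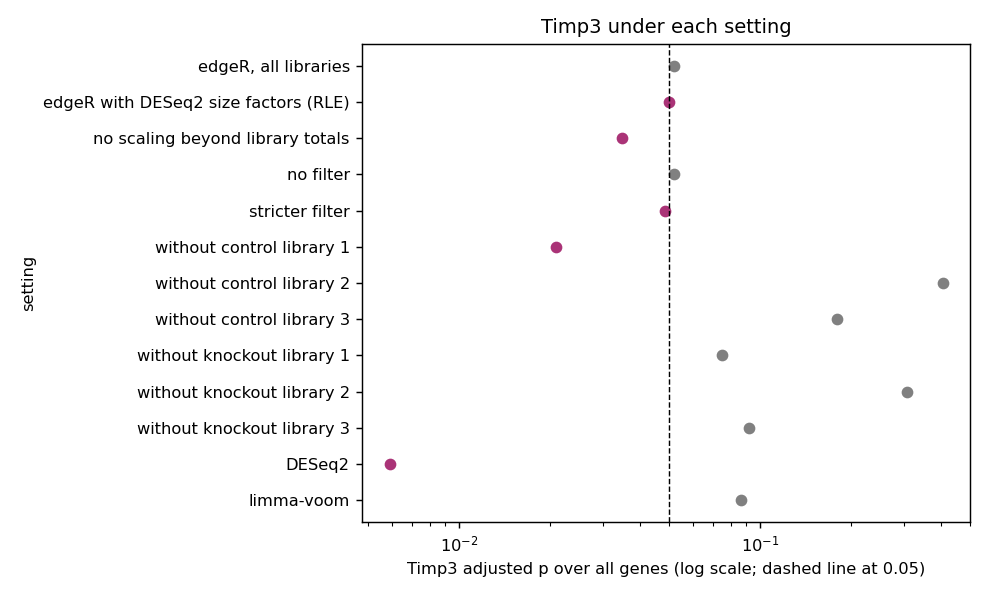
Adjusted p of Timp3 over all genes (horizontal axis, log scale) under the settings shown (vertical axis), with a dashed line at 0.05. The setting with the replicate number as a block is left out and is given in the closing section. Purple points pass and grey points do not. Values run from 0.0059 in DESeq2 to 0.405 without control library 2.

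Stromal cells are a further source of matrix and matrix regulators in marrow, and their markers were set beside Timp3. Of 18 stromal markers 8 were measured, and 3 rose, where 0.104% of all genes passed in either direction. The 3 were Col1a2, a chain of fibrillar collagen (log2 fold change 2.82, edgeR adjusted p = 0.046), the matrix protein Sparc (2.34, adjusted p = 0.046) and Fstl1 (1.01, adjusted p = 0.046). None of the 3 passed in limma-voom. The summed level of the 8 ranged from 14.5 to 18.5 CPM in the controls and from 23.8 to 33.6 CPM in the knockout libraries. Col1a2 and Sparc exceeded 1 CPM in the knockout libraries alone and are in the table through them. Without these genes the sum ranged from 13.7 to 17.2 CPM in the controls and from 19.7 to 25.2 CPM in the knockout libraries. Among the 6 markers left, 1, Fstl1, lay above the controls without overlap (means of 4.23 and 8.57 CPM), as did 5.73% of all genes. The rest of the 6 overlapped between the groups. Col1a2 was at 0.14 to 0.52 CPM in the controls and 1.39 to 4.48 CPM in the knockout libraries, and the defining marker Pdgfra was at 0.93 to 1.65 and 0.74 to 2.01 CPM. The defining markers Col1a1, Col3a1 and Dcn were not analysed here, and no measured stromal marker had a count of 0 in any library. The part of these markers in the Timp3 difference was not tested. In bulk libraries a different number of cells of a type and a different amount of RNA per cell cannot be told apart.

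Timp1 encodes a secreted inhibitor that also binds the surface protein CD63. It lay at 42.3, 41.9 and 53.3 CPM in the controls and at 38.6, 54.9 and 62.5 CPM in the knockout libraries 1 to 3. Knockout library 1 was the lowest of all 6 and knockout library 3 the highest, so the groups overlapped (log2 fold change 0.19, SE 0.15, 95% interval -0.12 to 0.50, edgeR adjusted p = 0.902). With 1 library left out, the log2 fold change ran from 0.03 to 0.37.

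Timp2 encodes the inhibitor that also takes part, with Mmp14, in activating the proenzyme of gelatinase A. It was steady across control libraries at 413, 387 and 396 CPM, and lay at 474, 415 and 392 CPM in the knockout libraries. Knockout library 1 stood above the rest, knockout library 2 was just above the highest control and knockout library 3 was inside the control range (log2 fold change 0.10, SE 0.09, 95% interval -0.09 to 0.29, edgeR adjusted p = 0.911).

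The make-up of the inhibitors was compared per kilobase of exon, the scale on which genes of unlike length can be set side by side. Timp2 made up 68.0% ± 3.1 of the summed TIMP level in the controls and 66.5% ± 7.4 in knockout libraries, and Timp1 31.7% ± 3.2 and 32.8% ± 7.4 (SD, n = 3 each). Timp3 made up 0.23% to 0.39% in the controls and 0.60% to 0.79% in knockout libraries. The summed TIMP level was 162 ± 7.64 CPM per kilobase in the controls and 178 ± 2.12 CPM per kilobase in the knockout libraries, with 169.7 in the highest control and 175.5 in the lowest knockout library. Nearly all of that sum was Timp1 and Timp2, whose own levels overlapped between the groups. Among single genes, 5.73% were higher in the knockout libraries without overlap, and no test was run on the sum.

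Among the proteases, Mmp12 was the most abundant. Mmp12 encodes macrophage elastase, which cuts elastin. It lay at 4741, 4569 and 5233 CPM in the controls and at 4805, 5502 and 5197 CPM in the knockout libraries 1 to 3. Knockout library 2 was the highest and control library 2 the lowest, with the other 4 in between in mixed order (log2 fold change 0.09, SE 0.09, 95% interval -0.10 to 0.28, edgeR adjusted p = 0.924).

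Mmp13 encodes an interstitial collagenase that cuts fibrillar collagen. It lay at 1649, 1583 and 1862 CPM in the controls and at 1158, 1770 and 1755 CPM in the knockout libraries. Knockout library 1 was the lowest of all, and knockout libraries 2 and 3 lay inside the control range. The log2 fold change was -0.12 (SE 0.13, 95% interval -0.40 to 0.15, edgeR adjusted p = 0.938) and 0.058 without knockout library 1. Spread between knockout libraries was 22.3% of the mean, where counting alone would give 0.663%.

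Mmp12 and Mmp13 kept a narrow ratio in control libraries, where the Mmp12 level per kilobase was 2.13, 2.14 and 2.08 times that of Mmp13. In knockout libraries 1 to 3 the ratio was 3.08, 2.30 and 2.20. Each of these was above the control range, with knockout library 1 the farthest from it. An exact permutation test of 3 libraries against 3 cannot go below p = 0.1, and none was run on a ratio chosen after its values were seen.

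Mmp9 encodes gelatinase B, made by macrophages and stored in neutrophil granules, which cuts denatured collagen and basement membrane collagen. It lay at 654, 437 and 501 CPM in the controls and at 684, 594 and 698 CPM in the knockout libraries 1 to 3. Knockout libraries 1 and 3 lay above all controls, and knockout library 2 lay below control library 1. The log2 fold change was 0.31 (SE 0.12, 95% interval 0.05 to 0.57, unadjusted p = 0.020, edgeR adjusted p = 0.672). Without control library 1 it was 0.49 (adjusted p = 0.051) and without control library 2 it was 0.19 (adjusted p = 0.977).

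Markers of neutrophils, which also make Mmp9, were counted in the same libraries. Of 16 markers of neutrophils and their precursors 12 were measured and 5 rose, where 0.104% of all genes passed in either direction. Among the 5 were Ngp (log2 fold change 1.24, edgeR adjusted p = 1.5e-04) and Lcn2 (0.87, adjusted p = 0.0026). Knockout libraries lay above the controls without overlap for 9 of the 12, as they did for 5.73% of all genes. The summed level of the 12 ranged from 409 to 516 CPM in the controls and from 717 to 897 CPM in the knockout libraries. S100a9 (means of 195 and 351 CPM) and S100a8 (79.0 and 152 CPM), both among the 5, took most of this sum. Control libraries had the same order by Mmp9 and by this sum, with control library 2 the lowest of all and knockout library 3 the highest. Knockout library 1 was the second highest for Mmp9 and the lowest knockout for the sum. Mmp8, a neutrophil collagenase gene on the list, had a log2 fold change of -0.02. Of the defining markers, Ngp ranged from 26.9 to 36.0 CPM in the controls and from 65.0 to 87.1 CPM in the knockout libraries, Mpo from 3.15 to 7.43 and from 9.35 to 12.8 CPM, and Elane from 0.71 to 2.78 and from 1.31 to 2.51 CPM. No measured marker had a count of 0, and Ly6g and Cxcr2 were not analysed here. The part of these markers in the Mmp9 values was not tested.

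**Figure D3:**
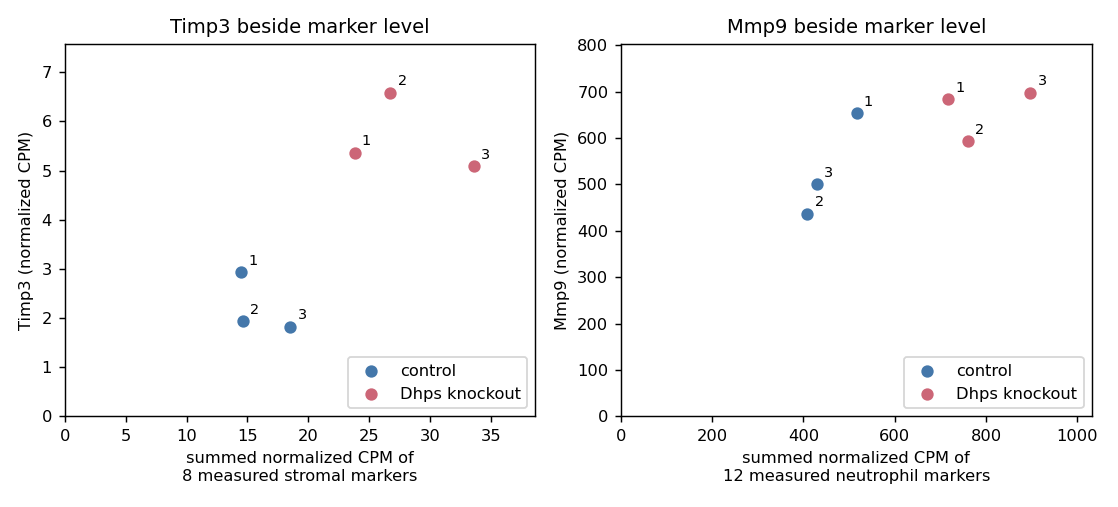
Left, Timp3 against the summed level of 8 measured stromal markers. Right, Mmp9 against that of 12 measured neutrophil markers, mostly S100a9 and S100a8. Both axes are normalized CPM from 0, each point is a library and numbers are library numbers. Both marker sums are separate between the groups, at 14.5 to 18.5 against 23.8 to 33.6 CPM and 409 to 516 against 717 to 897 CPM. Without Col1a2 and Sparc, which exceed 1 CPM in no control library, the stromal sums are 13.7 to 17.2 against 19.7 to 25.2 CPM. Of the 6 markers left in these sums, Fstl1 alone is separate between the groups.

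Mmp14 encodes a membrane-anchored protease that cuts collagen at the cell surface. It lay at 133, 120 and 127 CPM in the controls and at 132, 157 and 129 CPM in the knockout libraries. Knockout library 2 stood above the rest, and knockout libraries 1 and 3 lay inside the control range (log2 fold change 0.14, SE 0.10, 95% interval -0.06 to 0.35, edgeR adjusted p = 0.876). The Mmp14 level per kilobase was 0.43 to 0.45 times that of its partner Timp2 in the controls and 0.39 to 0.53 times in knockout libraries.

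Mmp19 encodes a secreted protease that cuts basement membrane proteins. It lay at 296, 231 and 283 CPM in the controls and at 268, 328 and 333 CPM in the knockout libraries. Knockout libraries 2 and 3 lay above all controls, and knockout library 1 lay below control libraries 1 and 3 (log2 fold change 0.20, SE 0.11, 95% interval -0.03 to 0.43, edgeR adjusted p = 0.835).

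**Figure D4:**
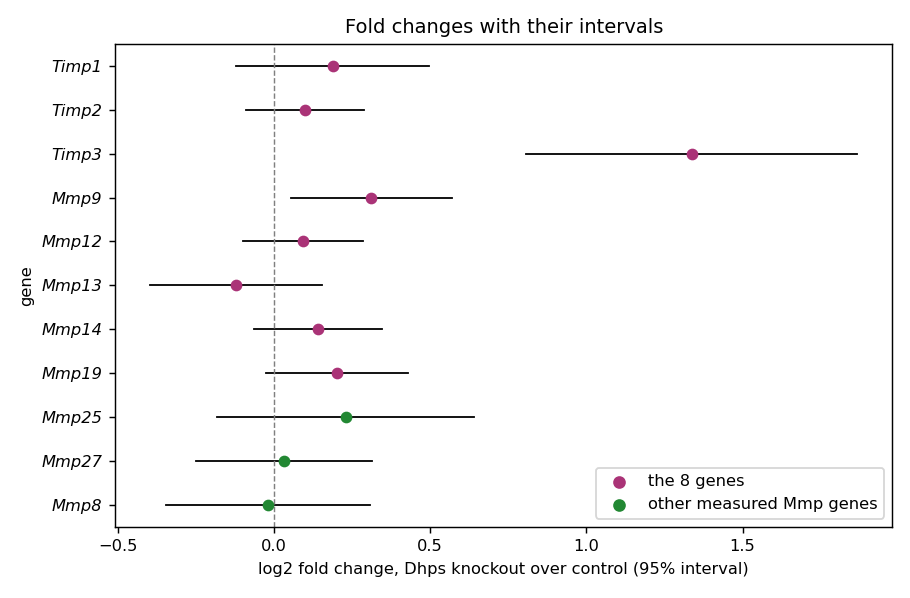
Log2 fold change of Dhps knockout over control (horizontal axis) for the 8 genes (purple) and 3 other measured Mmp genes (green), with 95% intervals from the edgeR fit as lines. The intervals of Timp3 and Mmp9 lie above 0 before adjustment over all genes, and the other 9 include 0.

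The 8 genes spanned a wide range of levels per kilobase of exon. Means over the 6 libraries were 1388 CPM per kilobase for Mmp12, 609 for Mmp13, 187 for Mmp9, 114 for Timp2, 83.9 for Mmp19, 55.0 for Timp1, 51.1 for Mmp14 and 0.84 for Timp3. Neighbours in this order were separate in all 6 libraries, except that Mmp19 overlapped with Timp1 and Timp1 with Mmp14. Mmp12 stood at the 99.7th percentile of all genes by this measure and Timp3 at a percentile of 10.3. Mmp12 and Mmp13 together made up 87.1% ± 1.9 of the summed level of the 5 proteases in the controls and 85.1% ± 1.4 in knockout libraries (SD, n = 3 each). The summed protease level was 14.0 ± 0.35 times the summed TIMP level in the controls and 13.3 ± 1.16 times in knockout libraries, with overlap between the groups. Transcript ratios say nothing of the amount of active enzyme.

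**Figure D5:**
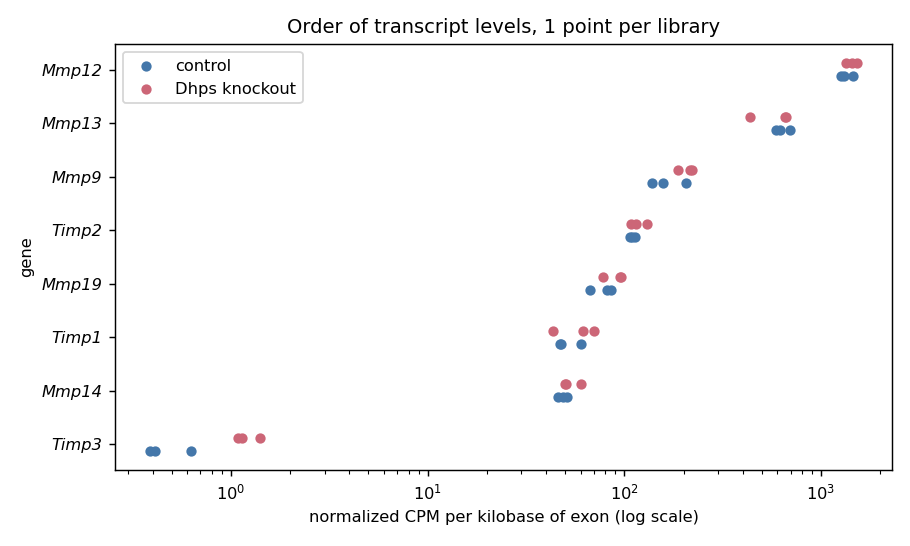
Normalized CPM per kilobase of exon (horizontal axis, log scale) of the 8 genes ordered by mean level (vertical axis), 1 point per library. Mmp12 lies highest at 1267 to 1525 and Timp3 lowest at 0.39 to 1.41.

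Other genes of the same families were few among the measured genes, and none passed. Of 19 further Mmp and TIMP genes 3 were measured: Mmp8, the collagenase of neutrophils (30.5 CPM in the controls and 30.3 CPM in the knockout libraries, log2 fold change -0.02, 95% interval -0.35 to 0.31), Mmp25, a membrane-anchored protease of leukocytes (8.41 and 9.80 CPM, 0.23), and Mmp27 (30.9 and 31.7 CPM, 0.03). The count called was 0 in edgeR, DESeq2 and limma-voom, and 0 at an unadjusted p under 0.05, with a median of 0.03. Of 23 genes of the ADAM and ADAMTS families, which include proteases that cut surface proteins and proteoglycans, 11 were measured. None of the 11 passed in edgeR, DESeq2 or limma-voom, and 0 had an unadjusted p under 0.05. Their median was -0.02, with log2 fold changes from -0.31 for Adamts1 to 0.37 for Adam22. The level of Adam22 was low, at means of 1.28 CPM in the controls and 1.70 CPM in the knockout libraries. Adam8 was the most abundant per kilobase, at 997 CPM in the controls and 1085 CPM in the knockout libraries (0.12, edgeR adjusted p = 0.899). Adam17, the TNF-releasing protease that Timp3 inhibits, lay at 263 and 240 CPM (log2 fold change -0.13, 95% interval -0.33 to 0.07).

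Of 17 activators, plasminogen system genes and surface partners 13 were measured and none passed in edgeR, DESeq2 or limma-voom. There was 1 at an unadjusted p under 0.05, against 6.48% of all genes, and the median log2 fold change was 0.01. Serpinb2, an inhibitor of the plasminogen activator urokinase, had the smallest p (log2 fold change 0.29, SE 0.09, edgeR adjusted p = 0.414). It lay at 106, 106 and 105 CPM in the controls and at 127, 126 and 135 CPM in the knockout libraries, without overlap. Such a separation in that direction was seen for 5.73% of all genes. The urokinase receptor gene Plaur was the most abundant of them per kilobase (604 and 571 CPM, -0.08). Furin, which removes the propeptide of Mmp14, had a log2 fold change of 0.14, the Timp1-binding Cd63 one of 0.16, and the endocytic receptor Lrp1, which takes up proteases and inhibitors, one of -0.10.

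Of 17 matrix genes whose products these proteases cut, 11 were measured and 2 rose, where 0.104% of all genes passed in either direction. The 2 were Col1a2 and Sparc, which the stromal list also holds. Of the 11, 3 (Col1a2, Sparc and Hspg2) exceeded 1 CPM in the knockout libraries alone and had to differ to be in the table. The median with them was 0.42, with 9 above 0 and 2 below, and over the other 8 it was 0.10, with 6 above 0 and 2 below. Hspg2, which encodes perlecan, did not pass (log2 fold change 2.08, edgeR adjusted p = 0.214). The basement membrane collagen gene Col4a1 did not pass either (1.37, adjusted p = 0.214). Knockout libraries lay above the controls without overlap for Col4a1, as they did for 5.73% of all genes. For Hspg2 the same separation was fixed by its place in the table. Spp1, which encodes osteopontin, a substrate of several metalloproteinases, was far more abundant, at 3282 and 3416 CPM (0.06, adjusted p = 0.963). The calls of Col1a2 and Sparc were lost in limma-voom and without each control library or knockout library 3, and 1 matrix gene was called without knockout library 2.

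Of 16 transcription factors with textbook roles at the promoters of these genes 14 were measured and none passed in edgeR, DESeq2 or limma-voom. There was 1 at an unadjusted p under 0.05, against 6.48% of all genes, and the median log2 fold change was 0.05. Egr1 had the smallest p, with a log2 fold change of 0.55 (edgeR adjusted p = 0.673) from 3.73 CPM in control libraries. Components of AP-1, the factor that binds the element printed in capitals for Mmp12 and Mmp13, had log2 fold changes of 0.14 for Fosl2, 0.09 for Jun, -0.07 for Junb and -0.02 for Fos. Nfkb1, the most abundant of the list per kilobase, was at -0.06.

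Osteoclasts express Mmp9 and Mmp14, and of 8 osteoclast markers 5 were measured and none passed in edgeR, DESeq2 or limma-voom. At an unadjusted p under 0.05 there were 2 of the 5, against 6.48% of all genes. The summed level of the 5 ranged from 1130 to 1193 CPM in the controls and from 1211 to 1278 CPM in the knockout libraries. Atp6v0d2 took most of this sum, at means of 744 and 799 CPM (log2 fold change 0.10), and its own groups overlapped. Nfatc1 (log2 fold change 0.31), the acid phosphatase gene Acp5 (0.19) and the protease gene Ctsk (-0.23) had edgeR adjusted p-values of 0.673, 0.861 and 0.749. The defining markers Calcr and Ocstamp were not analysed here. Of the other markers, none of 5 mast cell and basophil, 5 megakaryocyte or 3 endothelial markers passed by any of these tools. Against 6.48% of all genes, 2, 5 and 0 of them had an unadjusted p under 0.05. Of these, Mcpt8 and Prss34 of mast cells and basophils and Tubb1 and Gp9 of megakaryocytes exceeded 1 CPM in the knockout libraries alone and are in the table through them, which leaves 0 and 3. Their summed levels ranged from 14.3 to 18.5 CPM in the controls and 18.8 to 27.2 CPM in the knockout libraries for mast cells and basophils (13.2 to 17.0 and 15.5 to 22.3 CPM without Mcpt8 and Prss34), and from 85.0 to 91.9 and 78.2 to 89.3 CPM for endothelium. Vwf took most of the endothelial sum, at means of 81.4 and 74.7 CPM (log2 fold change -0.12), and overlapped between the groups, as did Kdr (-0.05). Pecam1 was higher without overlap (4.98 and 6.08 CPM, log2 fold change 0.29, edgeR adjusted p = 0.873). The megakaryocyte markers differed in direction without overlap: Pf4 was lower (log2 fold change -0.29), and Ppbp (0.77) and Itga2b (0.64) were higher. Tubb1 (1.54) and Gp9 (1.11) were higher too, a direction fixed by their place in the table. Separation without overlap was seen for 5.45% of all genes downward and for 5.73% upward. Pf4 took most of the megakaryocyte sum of 1421 to 1713 CPM in the controls and 1195 to 1327 CPM in the knockout libraries. The other 4, with Tubb1 and Gp9 among them, summed to 16.3 to 22.2 and 27.7 to 36.9 CPM. Of the 4, Ppbp had means of 6.96 and 11.9 CPM and Itga2b of 10.5 and 16.5 CPM. The part of all these markers in the results was not tested.

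Likeness of pattern was measured as Pearson's r of log2 CPM across the 6 libraries, over 8634 genes whose mean log2 CPM reached 2. For Timp3, which had the smallest p, the most alike were the glucose transporter gene Slc2a3 (r = 0.997, log2 fold change 0.74), Trp53bp2 (r = 0.976, 0.47) and Mtrr (r = 0.974, 0.45). For Mmp12, which had the highest level, they were the cationic amino acid transporter gene Slc7a2 (r = 0.996, log2 fold change 0.11), Ccar1 (r = 0.989, 0.13) and Sec63 (r = 0.984, 0.13). With 6 libraries r rests on few points, and the named genes were not the only ones with high values. Among the 8634 genes, 23 exceeded r = 0.95 with Timp3 and 26 with Mmp12. For Timp3, r includes the difference between the groups, and the genes named for it were all higher in the knockout libraries on average. All points share library depth and scaling, and no test was made.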

How the data were processed

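Per the labels' protocols, an Ion Proton machine sequenced the 6 macrophage libraries. The deposited table holds raw read counts per gene, which the authors did not normalize, with exon coordinates in mm10 and a summed exon length in bases. The tools in the submitters' processing notes are edgeR, featureCounts, STAR 2.4.2a and Subread 1.5.0, without their roles, and the build is mm10. Annotation and strand use are not given in the sources used here. In all 10551 genes the third highest library exceeded 1 CPM, so the table looks filtered at that level.

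Groups came from sample titles. Genes were tested with edgeR 4.0.16 in R 4.3.3 (quasi-likelihood, two-sided, TMM scaling, genotype as the only term), after filterByExpr with a minimum count of 10, which removed 0 genes. Benjamini-Hochberg adjustment covered all genes, and a gene rose or fell at an adjusted p under 0.05. SE is the log2 fold change divided by the square root of F. The test was also run on simulated counts, drawn with the same spread for every gene. That run does not cover genes of higher spread or libraries that are not independent. Log2 CPM used a prior count of 2. Alternatives were other scalings and filters, a replicate block, leaving out each library, DESeq2 1.42.0, limma-voom (limma 3.58.1) and an adjusted p under 0.1. Exon overlaps came from GENCODE M21. The number of unused per-sample columns was 0.

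The members and lists were chosen with earlier results of these data known. Named were the 8 genes, Dhps, up to 4 genes of each list by p and its most abundant gene per kilobase, and the 3 genes most alike to the members with the smallest p and the highest level. Adam22, Fos, Jun, Junb, Cd63, Adgre1, Csf1r, Cd68, Pdgfra, Fstl1, Mpo, Elane, Gp9 and Mmp8, where outside that rule, and the Mmp12 to Mmp13 ratio were chosen after their values were seen. Libraries of the same number were not shown to be paired.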

Additional observations from a re-analysis of the deposited data

How the results depend on the processing

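All 8 genes kept the direction of their log2 fold change under all alternatives, except Mmp13, which ranged from -0.22 to 0.058 with 1 library left out, the higher value being without knockout library 1. The number of the 8 genes called was 1, Timp3, with the size factors of DESeq2, without scaling, with the stricter filter, in DESeq2 and at an adjusted p under 0.1, and 0 or 1 with 1 library left out. Over all genes 11 were called, 22 in DESeq2 and 4 to 19 with 1 library left out, lowest without control library 2. Of the matrix genes 2 were called, 0 in limma-voom and 0 to 2 with 1 library left out. With the replicate number as a block, 35 genes were called, 1 of the 8 genes (Timp3, 1.36, adjusted p = 0.014) and Dhps (-0.61, adjusted p = 0.033). The numbers are not known to pair libraries: deviations from the group means of same-numbered libraries correlated at 0.14, 0.02 and 0.15. Dhps ranged from -0.76 to -0.50 with 1 library left out. The cause of these changes was not tested. Counts of 21 to 85 limit the precision of Timp3, while the other genes had at least 561 counts in every library.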
